A study of Mus musculus with 21 samples.

Results

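The scaffold genes of the postsynaptic density examined here were Shank1, Shank2, Shank3, Homer1, Homer2, Homer3, Dlg2, Dlg3, Dlg4 and Dlgap1. They were taken by gene symbol from a table of read counts, and all 10 were found among its 21878 lines. The set was chosen by its known place in the density and by measured values: the lower counts of Shank1 under each construct were known when it was drawn up. After a filter on low counts, 14968 genes were tested, and these 10 were among them. The remaining lines had too few counts. The libraries were made at postnatal day 7 from mouse spiral ganglion neurons, which carry signals from cochlear hair cells to the brain. Each library pooled about 50 neurons drawn up by micropipette and was prepared with Smart-seq2, which copies polyadenylated RNA along its length. Neurons of the DN-mHCN2 condition came from cochleae given an adeno-associated virus with a site-mutated, dominant-negative HCN2, a cation channel opened by hyperpolarization. In the truncated SK3 condition the virus carried a shortened, dominant-negative SK3, a potassium channel opened by calcium. In the control condition it carried EGFP, and the labels give these animals the genotype WT. There were 4 libraries of DN-mHCN2 apex, 3 of DN-mHCN2 base, 3 of truncated SK3 apex, 3 of truncated SK3 base, 4 of control apex and 4 of control base. All groups had thus received a virus, and none is labelled as lacking either channel gene. The promoter and serotype of the virus, the share of neurons that took it up and the animals behind each library are not given in the sources used here. P-values therefore measure the spread between libraries, which may be partly technical.

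At a glutamatergic synapse these proteins form layers beneath the receptors. Dlg proteins bind receptors and channels at the membrane with their PDZ domains, Dlgap proteins link Dlg to Shank, and Homer proteins cross-link Shank to metabotropic glutamate receptors and to calcium channels of internal stores. In the cochlea such a density lies in the afferent terminal of a spiral ganglion neuron, opposite the synaptic ribbon of an inner hair cell. The study compared neurons whose channels had been manipulated with neurons given EGFP, in the apex, where low sound frequencies are encoded, and in the base, where high ones are.

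Library totals ran from 10411634 to 15138780 counts, with 13611 to 15243 genes detected per library. Levels below are counts per 1000000 of the TMM-scaled library total (CPM). Hcn2 had 14.6 to 122 CPM in DN-mHCN2 libraries and 9.84 to 89.8 CPM in control libraries (log2 fold change 0.00, SE 0.59, edgeR BH-adjusted p = 1, after Benjamini and Hochberg). Kcnn3, which encodes SK3, had 0 to 1.94 CPM in truncated SK3 libraries and 0 to 1.49 CPM in control libraries. It had at most 23 counts in any library (log2 fold change 0.50, SE 1.17, edgeR BH-adjusted p = 0.949). The mutated and endogenous transcripts could not be separated in gene counts, so expression of the inserts was not measured. All 16 neuronal markers of a list that includes Tubb3, Nefl and Slc17a7 were in the table. Prph, at 0 in 6 libraries, was the only marker of that list without a count in some library. All 6 were construct libraries. The summed level of the 16 markers averaged 20100 CPM in DN-mHCN2 apex, 15600 in DN-mHCN2 base, 18900 in truncated SK3 apex, 22400 in truncated SK3 base, 20500 in control apex and 18300 in control base. Schwann and satellite glial markers summed to levels of the same order, with group means of 14000 to 31200 CPM, so glial RNA was present in every group. Replicates 2 and 3 of DN-mHCN2 base held 1776 and 1663 CPM of macrophage markers, while no control library exceeded 523 CPM. Replicate 1 of DN-mHCN2 apex was highest in supporting cell markers, at 10370 CPM, and replicate 1 of DN-mHCN2 base in fibroblast markers, at 8400 CPM. Replicate 1 of truncated SK3 base was the highest of all libraries in Schwann and satellite glial markers, at 47540 CPM. It was also highest in oligodendrocyte markers, at 4839 CPM, against at most 150.5 CPM in the remaining truncated SK3 base libraries. Control base replicates 1, 3 and 4 held 1957, 1580 and 1032 CPM of oligodendrocyte markers, and replicate 2 held 44.38 CPM. The DN-mHCN2 base libraries held 24.37 to 122.5 CPM. All 8 oligodendrocyte markers were lower in DN-mHCN2 base than in control base. Members' results are also given without the macrophage-rich pair, the libraries highest in supporting cell and fibroblast markers, or replicate 1 of truncated SK3 base. The part of these libraries in the results was not tested. With the macrophage-rich pair left out, DN-mHCN2 base held only replicate 1, the library highest in fibroblast markers. The basal part of those values thus rests on 1 library.

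Shank1, which builds the deeper layer of the density by joining Dlgap to Homer, was the member that stood furthest apart from control. Its lower level under each construct was known when the members were chosen, so its values are a description and its calls are no test of that difference. Shank1 (chromosome 7, 44310253 to 44360572 on GRCm38, plus strand) had 12.8, 19.6, 22.9 and 14.2 CPM in DN-mHCN2 apex and 18.4, 17.8 and 14.9 CPM in DN-mHCN2 base. Truncated SK3 apex libraries had 19.3, 9.91 and 13.3 CPM, and truncated SK3 base libraries 16.8, 17.6 and 8.03 CPM. Control apex libraries had 47.8, 48.2, 34.2 and 46 CPM, and control base libraries 32, 40.7, 31 and 39.6 CPM. Every one of the 13 construct libraries lay below every one of the 8 control libraries, with the highest construct library at 22.9 CPM and the lowest control library at 31 CPM. Both constructs were set against the same 8 control libraries, so their differences are not independent of each other.

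Ordered by group mean, Shank1 averaged 14.2 ± 5.32 CPM in truncated SK3 base (SD, n = 3), 14.2 ± 4.75 in truncated SK3 apex (n = 3), 17 ± 1.9 in DN-mHCN2 base (n = 3), 17.4 ± 4.71 in DN-mHCN2 apex (n = 4), 35.8 ± 5.03 in control base (n = 4) and 44 ± 6.61 in control apex (n = 4). The ranges of the 4 construct groups overlapped one another, as did those of the control groups. Over both regions, the mean of the apical and basal effects, the log2 fold change was -1.21 (SE 0.20) under DN-mHCN2, 0.433 times the control level, and -1.49 (SE 0.22) under truncated SK3, 0.357 times the control level. In the apex these changes were -1.34 (SE 0.28) and -1.64 (SE 0.31), and in the base -1.07 (SE 0.30) and -1.34 (SE 0.30). Shank1 was among the genes called (edgeR BH-adjusted p under 0.05) over both regions and in the apex, but not in the base, under either construct. As its difference was known beforehand, these calls are not support for it. The apical calls were not stable to the loss of a library. They held in 1 of 8 fits that left out a library under DN-mHCN2 (without DN-mHCN2 apex replicate 3). Under truncated SK3 they held in 2 of 7 (without control apex replicate 3 or truncated SK3 apex replicate 1). Over both regions the value of Shank1 was between -1.28 and -1.15 under DN-mHCN2 and between -1.65 and -1.35 under truncated SK3 as each library was left out. Without the pair of macrophage-rich libraries the DN-mHCN2 change was -1.14, and without the libraries highest in supporting cell and fibroblast markers it was -1.18. The truncated SK3 change was -1.56 without replicate 1 of truncated SK3 base. In pooled cells, fewer cells of a type and less RNA per cell cannot be told apart. The 16 neuronal markers had a median log2 fold change of -0.09 under DN-mHCN2 and -0.10 under truncated SK3 over both regions.

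Shank2 and Shank3, paralogues with the same layout of domains, had low levels and a wide spread. Shank2 ranged over 1.84 to 11.2 CPM in DN-mHCN2 libraries (median 5, n = 7), 1.86 to 12.5 in truncated SK3 libraries (median 4.73, n = 6) and 2.86 to 17.4 in control libraries (median 6.37, n = 8). Shank3 ranged over 0 to 3.4 CPM in DN-mHCN2 libraries, 0.0718 to 2.27 in truncated SK3 libraries and 0.347 to 1.97 in control libraries, and it was the only member with no count in a library, replicate 2 of DN-mHCN2 base, where 3 counts, the limit that a count of 0 allows, would be 0.278 CPM. For both genes the groups overlapped throughout. The log2 fold changes of Shank2 were -0.30 (SE 0.53, edgeR BH-adjusted p = 0.79) under DN-mHCN2 and -0.35 (SE 0.56, edgeR BH-adjusted p = 0.908) under truncated SK3, and those of Shank3 were 0.44 (SE 0.85, edgeR BH-adjusted p = 0.811) and 0.32 (SE 0.88, edgeR BH-adjusted p = 0.957). The sign of the Shank3 value under DN-mHCN2 turned with the libraries. It was 1.14 (SE 0.85) without the macrophage-rich pair, a fit that kept only replicate 1 of DN-mHCN2 base, at 2.75 CPM. It was -1.06 (SE 0.96) without those highest in supporting cell and fibroblast markers. For Shank2 these values were 0.11 and -0.63, and neither gene was called in the latter fit. With standard errors of this size, changes as large as that of Shank1 were not detectable in Shank3. Shank1 made up 70.1% of the summed CPM of the 3 Shank genes in DN-mHCN2 apex, 73.4% in DN-mHCN2 base, 63% in truncated SK3 apex and 69.5% in truncated SK3 base, against 84.6% in control apex and 81.6% in control base, as means over libraries. The share of single libraries ran as high as 87.7% in DN-mHCN2 base and as low as 72.4% in control apex, so the ranges overlapped.

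**Figure D1:**
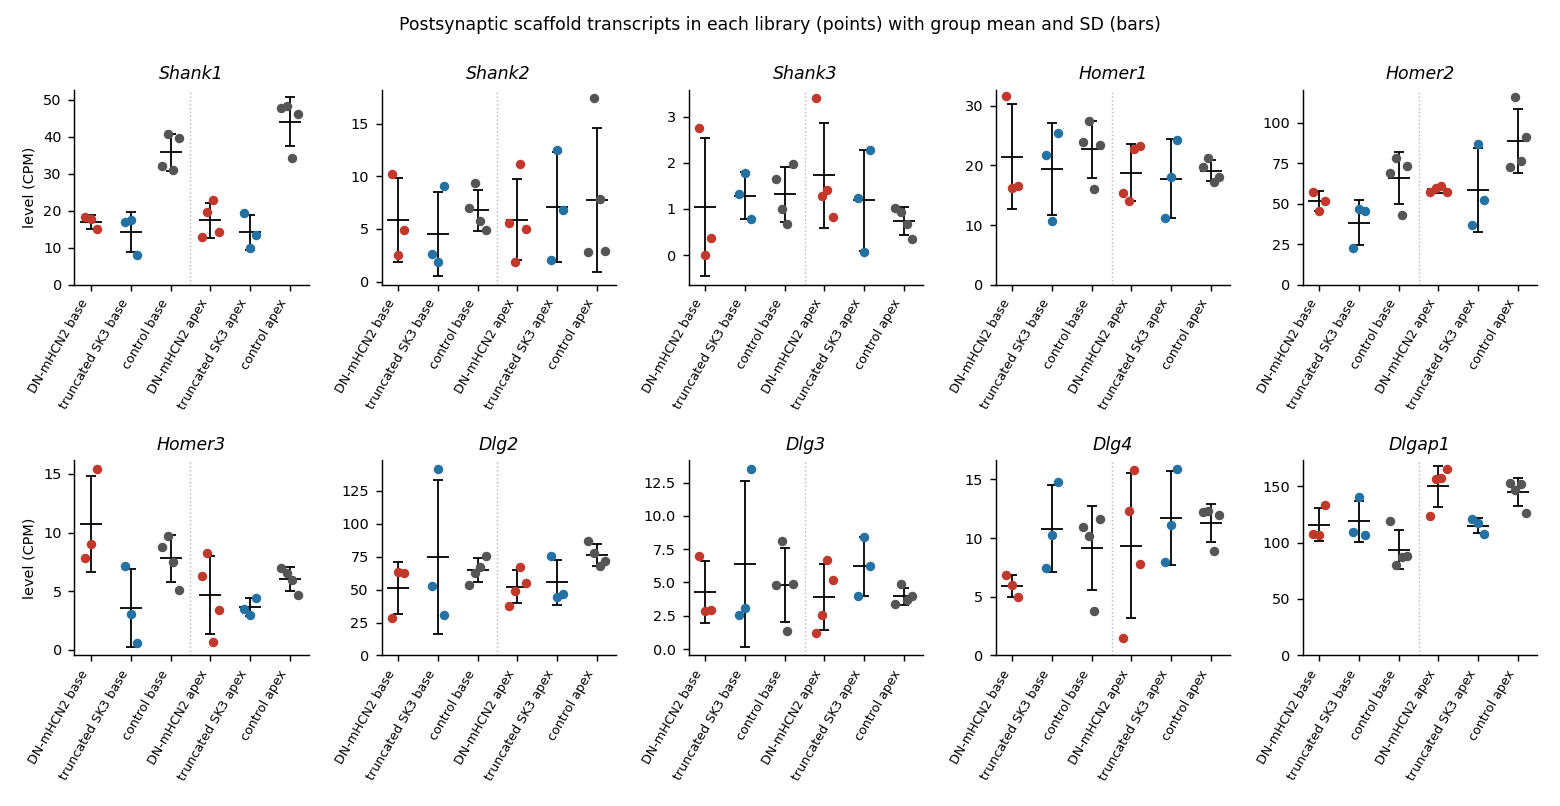
Levels (CPM) of the 10 scaffold genes in every library, with 1 panel a gene. Points are libraries, long bars group means and whiskers SD, with DN-mHCN2 in red, truncated SK3 in blue and control in grey, base groups left of apex groups. All construct points of Shank1 lie at or below 22.9 CPM and all control points at or above 31 CPM, while the other panels show overlap between conditions.

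Among the Homer genes, which encode the adaptors between Shank and the metabotropic glutamate receptors, Homer2 had the highest counts, and none passed the test against control. Homer2 (chromosome 7, 81600481 to 81707527, minus strand) had 57.2, 60, 61.3 and 57.3 CPM in DN-mHCN2 apex and 57.6, 45.5 and 51.8 CPM in DN-mHCN2 base. It had 36.7, 87.3 and 52.2 CPM in truncated SK3 apex and 22.4, 46.8 and 45.8 CPM in truncated SK3 base. Control apex libraries had 72.5, 116, 76.2 and 91.1 CPM and control base libraries 69.3, 78.4, 42.8 and 73.2 CPM. All 4 DN-mHCN2 apex libraries lay below all 4 control apex libraries, and in the other comparisons with control the ranges overlapped. The DN-mHCN2 apex libraries were also close together, at 59 ± 2.03 CPM (SD, n = 4), against 88.9 ± 19.7 CPM in control apex (n = 4).

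Over both regions the log2 fold change of Homer2 was -0.47 under DN-mHCN2 (SE 0.19, edgeR BH-adjusted p = 0.149) and -0.69 under truncated SK3 (SE 0.20, edgeR BH-adjusted p = 0.149). The truncated SK3 difference was called once truncated SK3 apex replicate 2, the highest library of that condition, was left out (-0.89). In truncated SK3 base the lowest Homer2 library, at 22.4 CPM, was replicate 1, the one richest in glial and oligodendrocyte markers. Without it the truncated SK3 change was -0.55 (SE 0.19) over both regions and -0.51 (SE 0.29) in place of -0.78 in the base, neither of them called. Under DN-mHCN2 Homer2 was at -0.38 without the macrophage-rich libraries and -0.51 without those highest in supporting cell and fibroblast markers. After a correction for the GC content and length of transcripts, the DN-mHCN2 value was -0.09 in place of -0.47.

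Homer1 (chromosome 13, 93299635 to 93405129, plus strand) held nearly level group means, at 18.8 ± 4.8 CPM in DN-mHCN2 apex (SD, n = 4), 21.5 ± 8.85 in DN-mHCN2 base (n = 3), 17.8 ± 6.62 in truncated SK3 apex (n = 3), 19.4 ± 7.7 in truncated SK3 base (n = 3), 19.1 ± 1.75 in control apex (n = 4) and 22.7 ± 4.83 in control base (n = 4). Its log2 fold changes were -0.05 (SE 0.23, edgeR BH-adjusted p = 0.936) and -0.16 (SE 0.24, edgeR BH-adjusted p = 0.899) under DN-mHCN2 and truncated SK3. The DN-mHCN2 value of Homer1 was 0.24 without the macrophage-rich libraries and -0.20 without those highest in supporting cell and fibroblast markers, with no call. Homer1 also gives rise to a short transcript, induced by neuronal activity, whose protein lacks the cross-linking part. Counts per gene add the long and short forms together, so a shift between them was not measured.

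Homer3 was the least abundant Homer gene in CPM and the most variable. It ranged over 0.664 to 15.4 CPM in DN-mHCN2 libraries (median 7.83, n = 7), 0.58 to 7.14 in truncated SK3 libraries (median 3.29, n = 6) and 4.66 to 9.75 in control libraries (median 6.76, n = 8). In the apex, the truncated SK3 libraries (2.94 to 4.46 CPM) lay just below the control libraries (4.66 to 6.97 CPM). Its log2 fold changes over both regions were 0.05 (SE 0.48, edgeR BH-adjusted p = 0.974) under DN-mHCN2 and -0.92 (SE 0.51, edgeR BH-adjusted p = 0.562) under truncated SK3. Without replicate 1 of truncated SK3 base the truncated SK3 value of Homer3 was -1.41 (SE 0.54), again not called, and the DN-mHCN2 value was -0.17 without the macrophage-rich libraries. In the annotation, 25.4% of the exonic bases of Homer3 are overlapped by Ddx49 on the opposite strand, and without strand information reads of the pair cannot be told apart.

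Dlg2, Dlg3 and Dlg4 encode the membrane-associated guanylate kinases PSD-93, SAP102 and PSD-95, which hold ionotropic glutamate receptors and potassium channels in the density. Dlg2 (chromosome 7, 90476672 to 92449247, plus strand) was by far the most abundant, with 74.6% to 83.2% of the summed CPM of these 3 genes as a group mean. It had 37.2, 49, 67.3 and 54.7 CPM in DN-mHCN2 apex, 28.7, 63.2 and 62.5 CPM in DN-mHCN2 base, 75.3, 44.6 and 46.5 CPM in truncated SK3 apex and 52.7, 142 and 30.4 CPM in truncated SK3 base. Control apex libraries had 86.9, 78.2, 67.8 and 71.4 CPM and control base libraries 53.7, 62.5, 67.3 and 75.8 CPM. The DN-mHCN2 apex libraries all lay below the control apex libraries, the closest at 67.3 and 67.8 CPM, and the other groups overlapped their controls.

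For Dlg2 the log2 fold change over both regions was -0.44 under DN-mHCN2 (SE 0.25, edgeR BH-adjusted p = 0.325) and -0.12 under truncated SK3 (SE 0.26, edgeR BH-adjusted p = 0.938). The DN-mHCN2 value moved with the libraries and the correction used. It was -0.85 without the macrophage-rich libraries. That fit kept only replicate 1 of DN-mHCN2 base, at 28.7 CPM the lowest Dlg2 library of all. The value was -0.23 without the libraries highest in supporting cell and fibroblast markers and -0.09 after the GC and length correction. It was not called in either of these. In the base, the truncated SK3 value of 0.21 rested on replicate 2 at 142 CPM, the highest Dlg2 library of all, and was -0.65 without it.

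Dlg4 had 1.5 to 15.8 CPM in DN-mHCN2 libraries (median 6.83, n = 7), 7.44 to 15.9 in truncated SK3 libraries (median 10.7, n = 6) and 3.8 to 12.3 in control libraries (median 11.3, n = 8), and its changes of -0.45 (SE 0.38, edgeR BH-adjusted p = 0.533) and 0.14 (SE 0.39, edgeR BH-adjusted p = 0.956) under DN-mHCN2 and truncated SK3 did not pass the test. Dlg3, the X-linked member, had 1.24 to 6.96 CPM in DN-mHCN2 libraries, 2.55 to 13.5 in truncated SK3 libraries and 1.36 to 8.13 in control libraries. Its changes were -0.10 (SE 0.50, edgeR BH-adjusted p = 0.941) and 0.53 (SE 0.51, edgeR BH-adjusted p = 0.801). Under DN-mHCN2, Dlg4 was at -0.34 without the macrophage-rich libraries and -0.33 without those highest in supporting cell and fibroblast markers, and Dlg3 at 0.27 and -0.23. For Dlg3 and Dlg4 the groups overlapped in every comparison with control.

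Dlgap1, the linker between the guanylate kinase domain of Dlg proteins and the PDZ domain of Shank, had the highest counts of the set and the smallest spread within groups. Dlgap1 (chromosome 17, 69969073 to 70821413, plus strand) had 124, 156, 157 and 165 CPM in DN-mHCN2 apex and 108, 107 and 133 CPM in DN-mHCN2 base. It had 121, 117 and 108 CPM in truncated SK3 apex and 109, 140 and 107 CPM in truncated SK3 base. Control base libraries had 119, 79.9, 87.5 and 88.2 CPM, all below the control apex libraries at 153, 147, 152 and 126 CPM. It was the only member whose control libraries did not overlap between regions with the base lower, as was the case for 2.85% of all tested genes. Under both constructs the base and apex libraries overlapped.

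Over both regions Dlgap1 did not pass the test against control, with log2 fold changes of 0.18 under DN-mHCN2 (SE 0.11, edgeR BH-adjusted p = 0.354) and 0.01 under truncated SK3 (SE 0.11, edgeR BH-adjusted p = 0.998), and 95% intervals of -0.05 to 0.41 and -0.23 to 0.24. The truncated SK3 value is the mean of regional values of opposite sign. They were -0.33 in the apex (SE 0.16, edgeR BH-adjusted p = 0.598) and 0.34 in the base (SE 0.16, edgeR BH-adjusted p = 0.901). Under DN-mHCN2 the apical and basal values were 0.06 and 0.30, also without a call. Over both regions, the DN-mHCN2 value of Dlgap1 was 0.14 without the macrophage-rich libraries and 0.24 without those highest in supporting cell and fibroblast markers, with no call. The DN-mHCN2 value was 0.45 and called after the GC and length correction. Base against apex in control neurons gave -0.63 (SE 0.15, edgeR BH-adjusted p = 0.381), with an unadjusted p of 0.000401. DESeq2 and limma-voom both called it, at -0.63. Averaged over the 3 conditions, the regional difference was -0.32 (SE 0.09, edgeR BH-adjusted p = 0.0995). The regional difference under truncated SK3 less that in control was 0.67 (SE 0.23, edgeR BH-adjusted p = 1, unadjusted p = 0.00792), so a difference between the conditions did not pass the test.

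**Figure D2:**
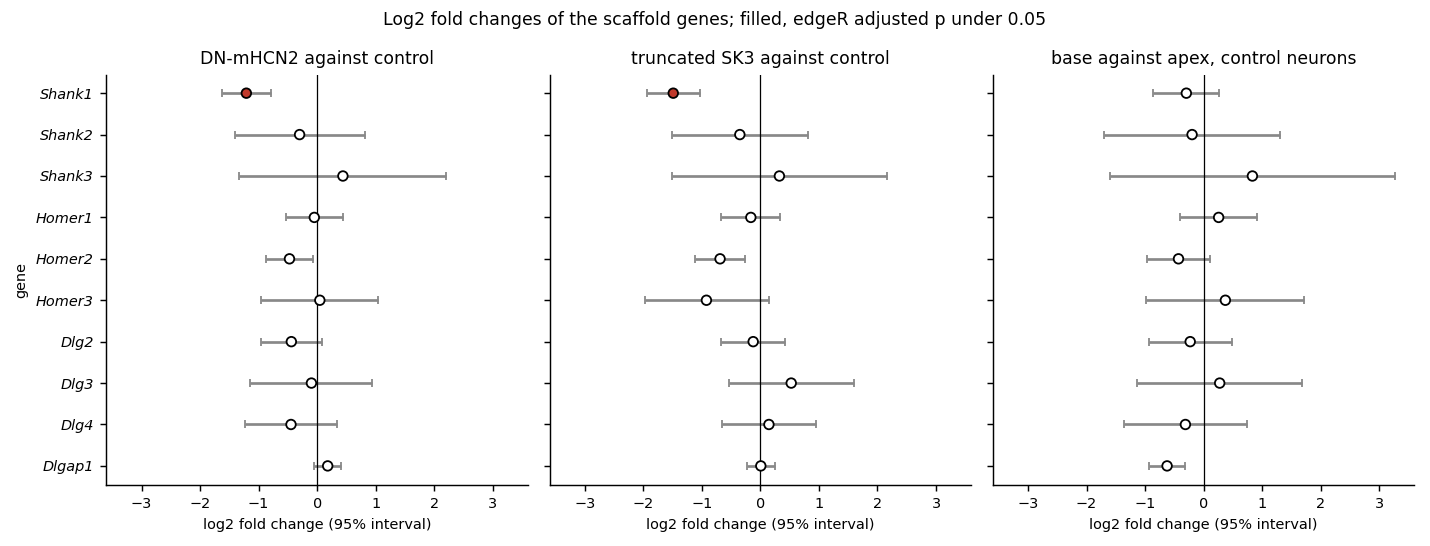
Log2 fold changes of the 10 scaffold genes with 95% intervals for DN-mHCN2 against control and truncated SK3 against control over both regions and for base against apex in control neurons. Filled points passed an edgeR BH-adjusted p of 0.05. Shank1, chosen with its difference known, is filled at -1.21 and -1.49. Dlgap1 lies left of 0 at -0.63 in the regional panel without a call, and the intervals of Shank3 are the widest.

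Set against all tested genes, 1 of the 10 members, Shank1, was called over both regions under DN-mHCN2, where 6.05% of all genes were called, and 1, again Shank1, under truncated SK3, where 0.735% were called. Without replicate 1 of truncated SK3 base the member count stayed at 1, among 72 called genes in place of 110, and the truncated SK3 values of the members not yet given were -0.22 for Shank2, 0.32 for Shank3, -0.21 for Homer1, -0.02 for Dlg2, 0.71 for Dlg3, 0.25 for Dlg4 and 0.03 for Dlgap1. Since Shank1 was known to differ when the members were chosen, nothing is read from these counts or from those that follow for apex and base. In the apex 1 member (Shank1) was called under each construct, against 0.2% of all genes under DN-mHCN2 and 0.254% under truncated SK3. In the base no member was called under DN-mHCN2 or truncated SK3 by edgeR, against 2.14% and 0.147% of all genes. At an unadjusted p under 0.05 there were 1 and 3 members in these basal comparisons, beside 18.5% and 5.51% of all genes, and DESeq2 called 1 in each, Shank1, among 1086 and 80 genes.

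By range alone, 3 members lay wholly below control in the DN-mHCN2 apex (Shank1, Homer2 and Dlg2), as did 4.88% of all tested genes, and 3 in the truncated SK3 apex (Shank1, Homer3 and Dlgap1), as did 6.77%. In the base the count was 1 member (Shank1) for each construct, against 9.03% of all genes under DN-mHCN2 and 4.55% under truncated SK3. No member lay wholly above control in any of these comparisons, against 4.59% and 8.02% of all genes in the apex and base under DN-mHCN2 and 5.02% and 3.91% under truncated SK3. Over the libraries of both regions, Shank1 was the member whose libraries all lay below control, as did 0.995% of all genes under DN-mHCN2 and 0.681% under truncated SK3. The median log2 fold change of the members was -0.20 under DN-mHCN2, with 7 negative and 3 positive, beside 0.03 over all tested genes. Under truncated SK3 it was -0.14, with 6 negative and 4 positive, beside 0.01 over all tested genes. These medians and the counts of members below control include Shank1, whose difference was known when the members were chosen. Nothing about the set is therefore read from them.

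Set against each other over both regions, DN-mHCN2 and truncated SK3 gave no member that edgeR called, where 0.655% of all genes were. No member passed an unadjusted p of 0.05 in that comparison, where 14.5% of all genes did. Shank1 differed by 0.28 (SE 0.22, edgeR BH-adjusted p = 0.602, 95% interval -0.17 to 0.73), Homer2 by 0.22 (SE 0.21, edgeR BH-adjusted p = 0.692, interval -0.21 to 0.65) and Dlgap1 by 0.17 (SE 0.12, edgeR BH-adjusted p = 0.534, interval -0.07 to 0.42). The point estimate was largest for Homer3, at 0.97 (SE 0.52, edgeR BH-adjusted p = 0.411), whose levels averaged 7.27 ± 4.66 CPM in DN-mHCN2 libraries (SD, n = 7) and 3.62 ± 2.15 CPM in truncated SK3 libraries (n = 6). These intervals leave room for differences of the size that their bounds give.

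Between base and apex in control neurons no gene at all was called by edgeR (0%), while 722 genes (4.82%), 1 of them a member (Dlgap1), had an unadjusted p under 0.05. DESeq2 called 83 genes and limma-voom 40. Shank1 had a log2 difference of -0.30 (SE 0.27, edgeR BH-adjusted p = 1) and Homer2 of -0.43 (SE 0.26, edgeR BH-adjusted p = 1). Averaged over the 3 conditions, Homer2 had -0.41 (SE 0.16, edgeR BH-adjusted p = 0.239) and Shank1 -0.11 (SE 0.17, edgeR BH-adjusted p = 0.84). The effect of DN-mHCN2 on Shank1 in the base less that in the apex was 0.27 (SE 0.40, edgeR BH-adjusted p = 0.947), and the same for truncated SK3 was 0.30 (SE 0.41, edgeR BH-adjusted p = 1). No member passed the test of either interaction, where 0.00668% of all genes were called for DN-mHCN2 and 0% for truncated SK3. Schwann and glial markers had group means of 24100 CPM in control base and 17100 CPM in control apex, and oligodendrocyte markers of 1150 and 26 CPM. Supporting cell markers had 414 and 1180 CPM, fibroblast markers 1950 and 1110 CPM, and macrophage markers 35.9 and 176 CPM. Hair cell markers summed to 1900 and 2240 CPM. Of the 11 tested, 10 were lower in control base and 1 higher, with a median log2 difference of -4.57. The part of any of these markers in the regional values was not tested.

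Compared per length, since longer transcripts give more reads in this protocol, Dlgap1 led the set at a mean of 17.3 CPM per kb of its longest annotated transcript over the 21 libraries. Dlg2 followed at 8.03, Homer2 at 5.64, Homer1 at 3.49, Shank1 at 2.54, Homer3 at 2.34, Dlg4 at 1.54, Dlg3 at 0.961, Shank2 at 0.711 and Shank3 at 0.166 CPM per kb. In control apex Shank1 had 4.48 CPM per kb and Homer1 3.34, so the order of these neighbours changed with the condition. The order also depended on the transcript length used: with the median length of the annotated transcripts Homer2 came first, Dlgap1 second, and Shank1 came at place 7. Shank3 came last either way.

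**Figure D3:**
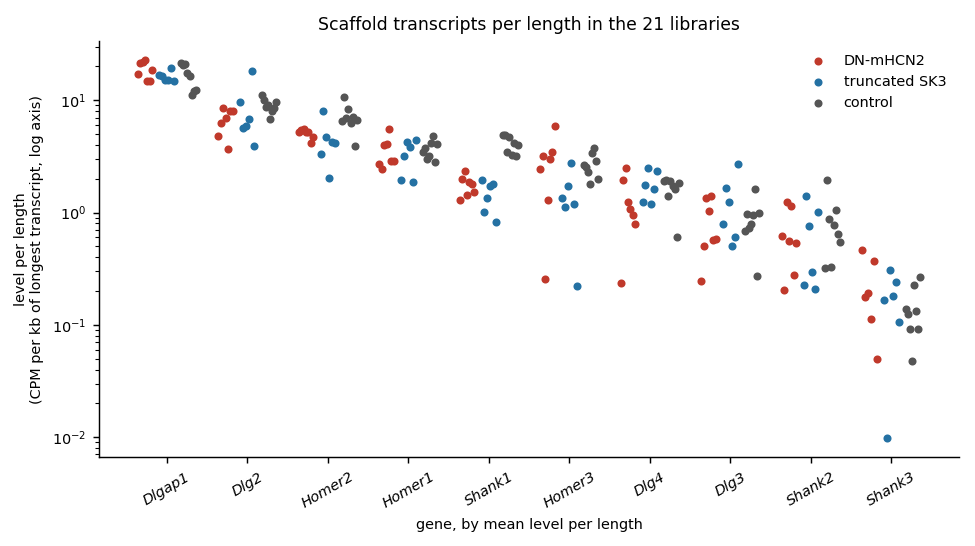
Levels per length (CPM per kb of the longest annotated transcript, log axis) of the 10 scaffold genes in the 21 libraries, coloured by condition and ordered by mean. Points are libraries, and the Shank3 library at 0 (replicate 2 of DN-mHCN2 base) cannot be drawn on a log axis. Dlgap1 sits highest at a mean of 17.3 and Shank3 lowest at 0.166, and the grey control points of Shank1 stand above its red and blue points.

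The remaining Dlg and Dlgap genes were Dlg1, Dlg5, Dlgap2, Dlgap3 and Dlgap4, and all 5 were tested. Under DN-mHCN2 over both regions Dlgap4 was called higher and Dlgap3 lower, where 6.05% of all tested genes were called in either direction. Dlgap4 had 35.8 to 62 CPM in DN-mHCN2 apex (n = 4) and 40.5 to 56.2 in DN-mHCN2 base (n = 3), against 18.6 to 41.7 CPM in control apex (n = 4) and 21.6 to 29.3 in control base (n = 4). Its log2 fold change was 0.73 (SE 0.18, edgeR BH-adjusted p = 0.0196). The basal DN-mHCN2 libraries lay wholly above control, as did 8.02% of all tested genes. The call held in 15 of 15 fits that left out a library but was lost without the libraries highest in supporting cell and fibroblast markers (0.56), in which Dlgap4 was at 62 and 56.2 CPM.

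Dlgap3 had 9.47 to 27.5 CPM in DN-mHCN2 apex and 8.16 to 12.8 in DN-mHCN2 base, against 24.2 to 37.5 CPM in control apex and 9.57 to 32.2 in control base, a log2 fold change of -1.05 (SE 0.28, edgeR BH-adjusted p = 0.0305). That call held in 5 of 15 fits that left out a library, and it was lost with the replicate number as a block (-1.10). Without the macrophage-rich libraries the value was -0.88. Only replicate 1 of DN-mHCN2 base was left in that fit, so no call is read from it. Under truncated SK3 none of the 5 was called by edgeR, DESeq2 or limma-voom, and none had an unadjusted p under 0.05, as 10.3% of all genes did.

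Of 33 other postsynaptic scaffold and signalling genes, 2 fell under DN-mHCN2 over both regions and none rose, beside 3.61% of all tested genes that fell. Arhgef7, the exchange factor betaPIX that binds Shank, averaged 51.7 ± 16.4 CPM in DN-mHCN2 apex (SD, n = 4) and 36.7 ± 11.5 in DN-mHCN2 base (n = 3), against 76.6 ± 3.64 CPM in control apex (n = 4) and 67.5 ± 11.3 in control base (n = 4). Its log2 fold change was -0.73 (SE 0.17, edgeR BH-adjusted p = 0.0141). Sipa1l1, the Rap regulator SPAR, had 61.3 ± 16.8 and 52.9 ± 7.94 CPM in DN-mHCN2 apex and base, against 81.7 ± 9.19 and 75.1 ± 5.24 CPM in control apex and base, a change of -0.46 (SE 0.13, edgeR BH-adjusted p = 0.0452). The call of Arhgef7 held in 15 of 15 fits that left out a library and that of Sipa1l1 in 3 of 15. Without the macrophage-rich libraries the values of Arhgef7 and Sipa1l1 were -0.60 and -0.53. Only replicate 1 of DN-mHCN2 base was left in that fit, so no call is read from it. The call of Sipa1l1 was lost after the GC and length correction (-0.18), with RLE factors (-0.44) and without the filter (-0.46). It was also lost in a fit of only the groups compared (-0.46) and without the libraries highest in supporting cell and fibroblast markers (-0.39). Under truncated SK3 none of the 33 was called by edgeR, 3 had an unadjusted p under 0.05 beside 10.3% of all genes, and DESeq2 and limma-voom called 1, the density protein gene Lrrc7 (-0.75, SE 0.20, edgeR BH-adjusted p = 0.115).

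Of 28 receptors and channels that these scaffolds bind, 24 were tested, and 2 fell under DN-mHCN2, beside 3.61% of all genes. Adgrl2, which encodes the adhesion receptor latrophilin-2, averaged 14.3 ± 5.63 CPM in DN-mHCN2 apex and 49.4 ± 20.5 in DN-mHCN2 base, against 31.3 ± 2.95 CPM in control apex and 81.8 ± 13.8 in control base (SD, n = 4 each but 3 in DN-mHCN2 base). Its log2 fold change was -0.93 (SE 0.22, edgeR BH-adjusted p = 0.0171), a call that held in 15 of 15 fits that left out a library. Without the macrophage-rich libraries the value was -0.65. Only replicate 1 of DN-mHCN2 base was left in that fit, so no call is read from it. The other gene was Grin2c, an NMDA receptor subunit, which had 0 to 1.02 CPM in DN-mHCN2 apex and 0 in all DN-mHCN2 base libraries, against 0.278 to 5.42 CPM in control apex and 0 to 6.01 in control base. At these levels its fold change is not interpretable, and the call held in 1 of 15 fits that left out a library. Under truncated SK3 none of the 24 was called by edgeR, DESeq2 or limma-voom, and 4 had an unadjusted p under 0.05, beside 10.3% of all genes. Under DN-mHCN2 over both regions, 9 of the 24 had an unadjusted p under 0.05, beside 3288 of all 14968 tested genes. So did 12 of the 33 other postsynaptic genes and 3 of the 5 remaining Dlg and Dlgap genes.

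Regional differences averaged over the 3 conditions, a comparison added after the data were seen in which 1.16% of all genes were called, included 2 of these receptors and no scaffold. Adgrl2 was higher in the base by 1.28 on the log2 scale (SE 0.19, edgeR BH-adjusted p = 0.00233). Grin2b, another NMDA receptor subunit, had 2.59 to 10.7 CPM in DN-mHCN2 base, 0 to 2.24 in truncated SK3 base and 0.436 to 3.1 in control base, against 0 to 0.261 CPM in DN-mHCN2 apex, 0 in all truncated SK3 apex libraries and 0 to 0.203 in control apex (edgeR BH-adjusted p = 0.0168).

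**Figure D4:**
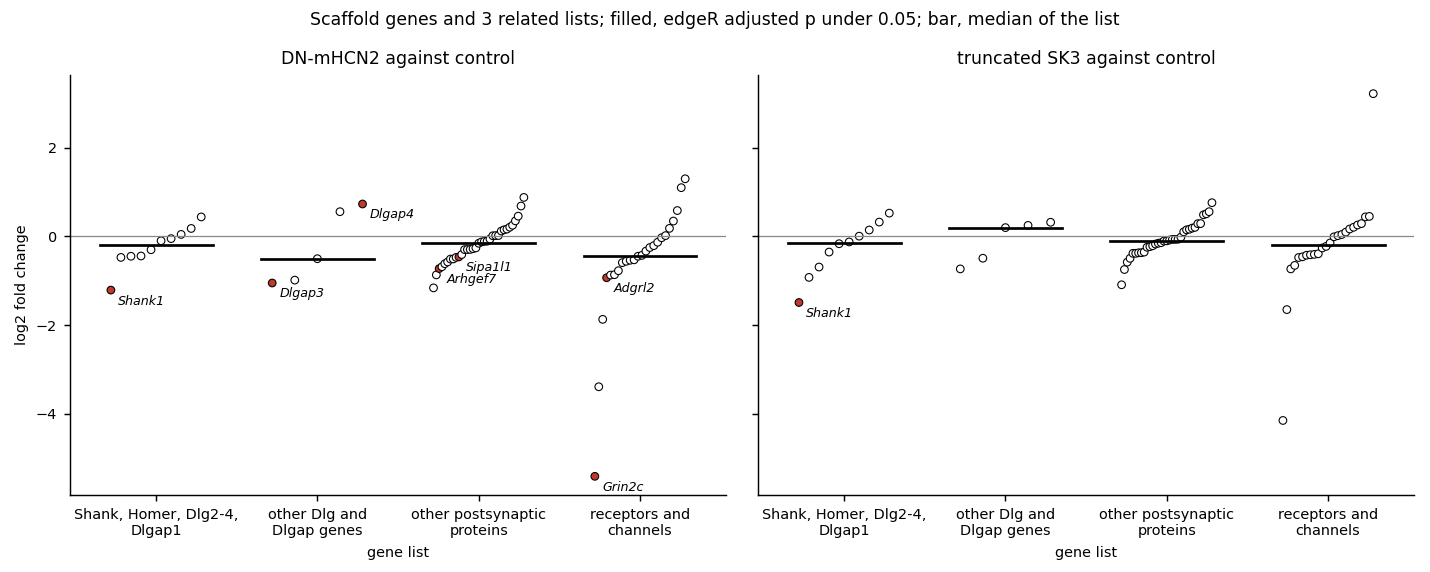
Log2 fold changes over both regions of the 10 scaffold genes and of 3 related lists, sorted within each list, for DN-mHCN2 against control and truncated SK3 against control. Points are genes, filled where the edgeR BH-adjusted p was under 0.05, and bars are list medians. Besides Shank1, filled points appear in the DN-mHCN2 panel only, at Dlgap3, Dlgap4, Arhgef7, Sipa1l1, Adgrl2 and Grin2c; whether the constructs differ at these genes was a separate test, in which none was called.

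In the direct comparison of the constructs, edgeR called none of the genes of the 3 related lists, and DESeq2 called 1, the AMPA receptor subunit Gria1. The number of all genes that DESeq2 called there is given with the processing alternatives. Against control, the edgeR log2 fold changes of Gria1 had SEs of 2.16 in DN-mHCN2 apex, 2.34 in DN-mHCN2 base and 2.03 in truncated SK3 base. Its level was thus measured with little precision. The values of DN-mHCN2 over truncated SK3 were 0.48 for Dlgap4 (SE 0.19, edgeR BH-adjusted p = 0.247), -0.56 for Dlgap3 (SE 0.29, edgeR BH-adjusted p = 0.395) and -0.57 for Arhgef7 (SE 0.18, edgeR BH-adjusted p = 0.126).

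The genes whose levels followed Shank1 most closely were not other scaffolds. The ranking covered 9709 tested genes that averaged 10 CPM or more. Genes with provisional symbols, such as Gm numbers and Rik or clone names, were left out of it. Over the 21 libraries, the highest Pearson correlations of log2(CPM + 1) with Shank1 were those of the ribosomal protein genes Rpl26 (r = 0.881), Rpl29 (r = 0.88) and Rpl34 (r = 0.868), the signal recognition particle gene Srp9 (r = 0.847) and the ribosomal protein gene Rps18 (r = 0.831). These correlations are descriptions with no p, over libraries that for Shank1 fall into separate construct and control ranges. Rpl26 averaged 20.6 CPM in DN-mHCN2 libraries and 20.1 in truncated SK3 libraries, against 162 CPM in control libraries. Rpl29 averaged 7.89 and 7.17 CPM, against 116 CPM in control libraries.

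Several of these genes share sequence with other genes. Of the 50-base stretches of the longest transcript, 47.4% in Rpl26, 47.9% in Rpl29, 6.93% in Rpl34, 0.981% in Srp9 and 32.2% in Rps18 recur in that of some other gene, so their counts depend on how reads that fit several places were treated. In Shank1 the share was 0.849%, and 3.22% of its exonic bases are overlapped by 1700008O03Rik on the opposite strand. Whether construct and control libraries were sequenced or counted together is not given in the sources used here, so such a difference cannot be told apart from the constructs. Among the other members, the correlation with Shank1 was 0.55 for Dlg2, 0.504 for Homer2 and 0.361 for Homer3, and between -0.178 and 0.191 for the other 6.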

How the data were processed

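The authors deposited 1 table of read counts per gene symbol, with 1 column for each of the 21 libraries; the values are whole numbers and not normalized. Per the submitters' processing notes, Trimmomatic, HISAT2 and DESeq2 were used, without stated versions, and the builds named are mm10 and GRCm38. The counter, its treatment of strand and of reads that fit several places, and the annotation are not given in the sources used here. Libraries were grouped by condition and region from their titles. Genes kept by filterByExpr were analysed with edgeR 4.0.16 (R 4.3.3): TMM factors, a robust quasi-likelihood fit with a mean for every group, and a single estimate of spread from the 21 libraries. P-values were adjusted by Benjamini and Hochberg's method over the 14968 tested genes, and a gene was called at 0.05. Levels are CPM, counts per 1000000 of the TMM-scaled total, so a level of few counts carries counting error beside the spread between libraries. The limit for a count of 0 was 3 counts and covers counting error only. Coordinates, lengths and overlaps are from GENCODE M21 on GRCm38, matched by symbol.

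The members and the related lists were chosen with earlier results of these data known. All members were named, with up to 4 called genes per related list and comparison by smallest p. So were the 5 genes most correlated with Shank1 once provisional symbols were left out. Lrrc7 and Gria1 fall outside this rule and were named after their values were seen. Each comparison was repeated with RLE factors, without the filter, with at least 10 CPM required in 3 libraries, by limma-voom with quality weights (limma 3.58.1), by DESeq2 1.42.0, on only the groups compared, with a block for the replicate number, with a GC and length correction (splines with 5 degrees of freedom), and with each library left out in turn. Added after seeing the data were fits that dropped the 2 libraries above 1000 CPM in macrophage markers or those highest in supporting cell and fibroblast markers, and the regional difference averaged over conditions. The code was tested on simulated data. No 2 libraries of a group agreed within counting noise.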

Additional observations from a re-analysis of the deposited data

Results flagged for a closer look

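In 2 of the 30 sets of 4 libraries formed by the members and the groups of 4, a single library stood far from the other libraries of its set, where chance alone gives about 1 in 20. Both cases were replicate 3 of control apex. Shank1 had 34.2 CPM in this library, against 46 to 48.2 CPM in the remaining control apex libraries, a gap of 0.845 of the whole range. Dlg4 had 8.88 CPM there, against 12 to 12.3 CPM, a gap of 0.926 of the range. The Shank1 value still exceeded the highest construct library, at 22.9 CPM.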

How the results depend on the processing

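Over the alternatives other than leaving out single libraries, the log2 fold change of Shank1 over both regions was -1.24 to -1.03 under DN-mHCN2 and -1.55 to -1.40 under truncated SK3. No called value changed its sign, while uncalled values did, among them those of Shank3, Shank2, Homer1 and Dlg3. Counts of called members moved as follows. Under DN-mHCN2 in the apex the count was 0 in place of 1 with RLE factors, no filter, the replicate block, the GC and length correction, only the groups compared, or without the libraries highest in supporting cell and fibroblast markers. Under truncated SK3 in the apex it was 0 with only the groups compared. It was 2 under DN-mHCN2 over both regions with the GC and length correction, since Dlgap1 joined Shank1. DESeq2 called 1 member, Shank1, under each construct in the base and 1, Dlgap1, between regions in control, as limma-voom did with 1.

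Counts over all genes moved more. DESeq2 called 1646 (DN-mHCN2, both regions), 221 (its apex), 1086 (its base), 318 (truncated SK3, both regions), 156 (its apex), 80 (its base), 83 (control base against apex), 537 (DN-mHCN2 against truncated SK3), and 123 and 21 in the DN-mHCN2 and truncated SK3 interactions with region. Limma-voom called 1483 and 212 for DN-mHCN2 over both regions and in the apex, 305, 119 and 45 for truncated SK3 over both regions, in the apex and in the base, 40 between control regions and 0 in the DN-mHCN2 interaction. Only the groups compared gave 244 for truncated SK3 over both regions, 37 between control regions and 7 between the constructs. Without the macrophage-rich libraries DN-mHCN2 gave 475 over both regions, 55 in the apex and 103 in the base, 52 against truncated SK3 and 0 in the interaction. Without the libraries highest in supporting cell and fibroblast markers it gave 866 in the base and 64 in the interaction. Averaging the regional difference over the 3 conditions gave 173. The cause of these shifts was not tested.

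Deviations of libraries with the same replicate number correlated with r over 0.1 in 8 of 48 pairs (median -0.02, range -0.22 to 0.31, against a median of 0.01 for other numbers). These pairs include libraries of different conditions. Between apex and base of the same condition, in order of replicate, r was 0.127, 0.0248, 0.124 and -0.0769 in control. It was -0.0987, 0.00072 and -0.0329 in DN-mHCN2 and 0.0915, 0.0798 and 0.192 in truncated SK3. Whether such libraries shared animals was not tested. With the replicate number as a block, 602 genes were called for DN-mHCN2 over both regions, 69 for truncated SK3 over both regions, 141 for DN-mHCN2 in the base and 0 in the DN-mHCN2 interaction, against 906, 110, 320 and 1 without it.

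Leaving out each library in turn gave 520 to 1429 called genes for DN-mHCN2 over both regions, 16 to 86 in its apex, 107 to 569 in its base, 61 to 114 for truncated SK3 over both regions, 19 to 62 in its apex, 11 to 22 in its base, 0 to 2 between control regions, 52 to 354 between the constructs and 0 to 34 in the DN-mHCN2 interaction. Called members ranged over 0 to 1 in the apex under each construct and 1 to 2 under truncated SK3 over both regions. With 6 to 226 counts a library, Homer3 and Shank2 were measured with little precision, and Shank3, at 0 to 52 counts, with less.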
